A study of Mus musculus with 5 samples.

Results

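The 10 genes described here are the ligands and receptors of 3 signalling axes of the tumour vessel wall: Vegfa, Vegfb, Kdr and Flt1 of the vascular endothelial growth factor (VEGF) axis, Angpt2 and Tek of the angiopoietin axis, and Pdgfa, Pdgfb, Pdgfra and Pdgfrb of the platelet-derived growth factor (PDGF) axis. They were chosen by name, with earlier results of these data known. They are 10 of 41028 gene names in the merged tables, and all 10 had UMIs (unique molecular identifiers, 1 per captured transcript) in each of the 5 libraries. The samples are digested, viability-enriched mammary tumours of mice labelled PyMT, a mouse tumour model driven by the polyoma virus middle T antigen, and no age, strain or number of animals is given. The libraries are 2 fresh samples on the 10x Genomics 3' platform (fresh 10x 1 and fresh 10x 2), 1 sample labelled 24 h that was left at 4 °C before loading on the same platform (stored 10x), and 2 samples on the BD Rhapsody whole-transcriptome platform (BD 1 and BD 2). BD 2 is titled fresh while its data name says 24 h, so it enters class comparisons, and a platform comparison only as an alternative grouped by its title. Nothing states that the libraries come from separate animals, so p-values measure the spread between libraries, which may be technical.

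In the VEGF axis, VEGF-A made by tumour and stromal cells binds the receptor tyrosine kinases KDR (VEGFR2), the main signalling receptor of endothelial cells, and FLT1 (VEGFR1), which binds the ligand tightly and signals weakly. Angiopoietin 2 is a context-dependent ligand of TEK (TIE2), a receptor that holds vessels in a quiescent state when bound by angiopoietin 1. Endothelial PDGF-B recruits pericytes through PDGFRB, and PDGF-A acts mainly on PDGFRA of fibroblasts and other mesenchymal cells.

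The 3 receptor genes with their highest level in endothelial-like cells are Kdr (chr5:75932827-75978458, minus strand), Flt1 (chr5:147561604-147726011, minus strand) and Tek (chr4:94739289-94874976, plus strand), all positions from GENCODE M21 on GRCm38 (mm10). Their upstream sequences are shown because these genes shared 1 class of highest level. Each is the 240 bases from 250 to 11 bases before the RefSeq start (GRCm38.p6), on the gene's strand, outside the transcript, and capitals mark GGAA or its reverse complement TTCC, the core letters of ETS factor sites.
Kdr, chr5:75978466-75978705: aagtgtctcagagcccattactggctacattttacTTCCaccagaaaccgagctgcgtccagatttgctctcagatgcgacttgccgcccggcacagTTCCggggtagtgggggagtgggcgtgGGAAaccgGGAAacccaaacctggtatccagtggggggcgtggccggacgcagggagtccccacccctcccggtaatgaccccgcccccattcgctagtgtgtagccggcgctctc
Flt1, chr5:147726022-147726261: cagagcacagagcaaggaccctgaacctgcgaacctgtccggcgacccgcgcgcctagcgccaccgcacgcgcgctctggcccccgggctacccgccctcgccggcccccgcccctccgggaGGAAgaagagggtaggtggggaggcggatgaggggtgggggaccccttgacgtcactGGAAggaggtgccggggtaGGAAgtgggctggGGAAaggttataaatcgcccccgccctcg
Tek, chr4:94739039-94739278: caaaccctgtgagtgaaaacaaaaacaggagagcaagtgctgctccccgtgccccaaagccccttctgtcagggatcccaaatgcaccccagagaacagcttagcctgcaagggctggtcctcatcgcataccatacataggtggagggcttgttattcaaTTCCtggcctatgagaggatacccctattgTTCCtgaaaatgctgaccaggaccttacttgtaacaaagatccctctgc

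The GGAA core occurred 4 times in the Kdr window, 4 times in the Flt1 window and 2 times in the Tek window on both strands together. It occurred in 92.7% of all 32851 RefSeq windows of the same length, with a median of 3 copies, so its presence does not set these genes apart. In all, 19 letter strings were searched on both strands, after a first look at the windows, and strings that contain others overlap with them. The strings for ETS factors were GGAA, the longer string AGGAAG, the longer string CAGGAAG, the form CCGGAAG, the form GGAAGT and the reverse form TTCCTGT. Those of hypoxia-inducible factors were the core ACGTG, its form TACGTG and its form GACGTG. The others were CACCC of KLF factors, GGGCGG of SP factors with its longer form GGGGCGGGG, the TATA box TATAAA, the GATA factor string AGATAA with a second form TGATAA, the forkhead string TGTTTAC, the CArG box of serum response factor, the TEAD string CATTCC and the CCAAT box CCAAT. Besides GGAA, CACCC was in the windows of all 3 genes and in 50.6% of all windows. The longer GGAAGT was in the Kdr and Flt1 windows, not in that of Tek, and in 18.7% of all windows. GGGCGG and GGGGCGGGG were also in the Kdr and Flt1 windows, against 31.3% and 9.56% of all windows. AGGAAG (28.4% of all windows) and TATAAA (12.1%) were in the Flt1 window alone among the 3, and the other 12 strings were in none of the 3.

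The other 7 genes lie on other loci: Vegfa at chr17:46016993-46032369, Vegfb at chr19:6982473-6987651, Angpt2 at chr8:18690263-18741562, Pdgfa at chr5:138976014-138997370, Pdgfb at chr15:79995874-80014977, Pdgfra at chr5:75152292-75198215 and Pdgfrb at chr18:61045150-61085061. UMIs from 3' kits count the ends of transcripts, so the text compares a gene between cells and does not rank genes against each other.

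The libraries gave 1857 to 4077 clustered cells and 29166129 to 59957945 UMIs, and the median per cell lay between 8926 and 12474 UMIs. Cells were clustered without the 10 genes and without 12 further genes of the same pathways, and clusters were named from markers that include none of them. Epithelial-like cells numbered 1350, 1329, 2729, 2550 and 2918 in fresh 10x 1, fresh 10x 2, stored 10x, BD 1 and BD 2. They stand for the tumour compartment here, but whether each cell was malignant was not tested. Endothelial-like cells numbered 172, 101, 87, 45 and 13, mural-like cells (pericytes and smooth muscle) 68, 60, 27, 12 and 7, and fibroblast-like cells 193, 120, 313, 334 and 229, in the same order. Endothelial-like cells carried 6414 to 8303 CPM (UMIs per 1000000 of the class sum) of 8 endothelial markers, mural-like cells 17147 to 22196 CPM of 8 mural markers, and fibroblast-like cells 46125 to 64865 CPM of 6 fibroblast markers. Mural-like cells also carried 4746 to 6780 CPM of the fibroblast markers. The 7 mural-like cells of BD 2 were too few for a sum (minimum 10 cells), so mural-like gene levels and tests rest on 4 libraries. The marker ranges just given include those 7 cells. The same barcode occurred in BD 1 and BD 2 for 24 cells, and in at most 5 cells for any pair of 10x libraries.

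Classes were compared with edgeR's quasi-likelihood test on UMIs summed per library and class, with the library as a block, Benjamini-Hochberg adjustment over 11785 genes and a threshold of 0.05. Of the 10 members, 9 passed between endothelial-like and epithelial-like cells (7 higher, 2 lower), against 60.7% of all genes tested (25.9% higher, 34.8% lower). Between mural-like and epithelial-like cells 6 passed (5 higher, 1 lower), against 43.4% of all genes (18.2% higher, 25.2% lower). Between fibroblast-like and epithelial-like cells 7 passed (6 higher, 1 lower), against 71.9% (34.6% and 37.3%). Between mural-like and endothelial-like cells 6 passed (2 higher, 4 lower), against 25.9% (12.2% and 13.6%). Between fibroblast-like and endothelial-like cells 10 passed (4 higher, 6 lower), against 49.7% (29% and 20.7%), and between fibroblast-like and mural-like cells 8 (3 higher, 5 lower), against 24.4% (16.4% and 7.99%). The share over all genes was itself between 24.4% and 71.9%, and the sizes and directions follow gene by gene.

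**Figure D1:**
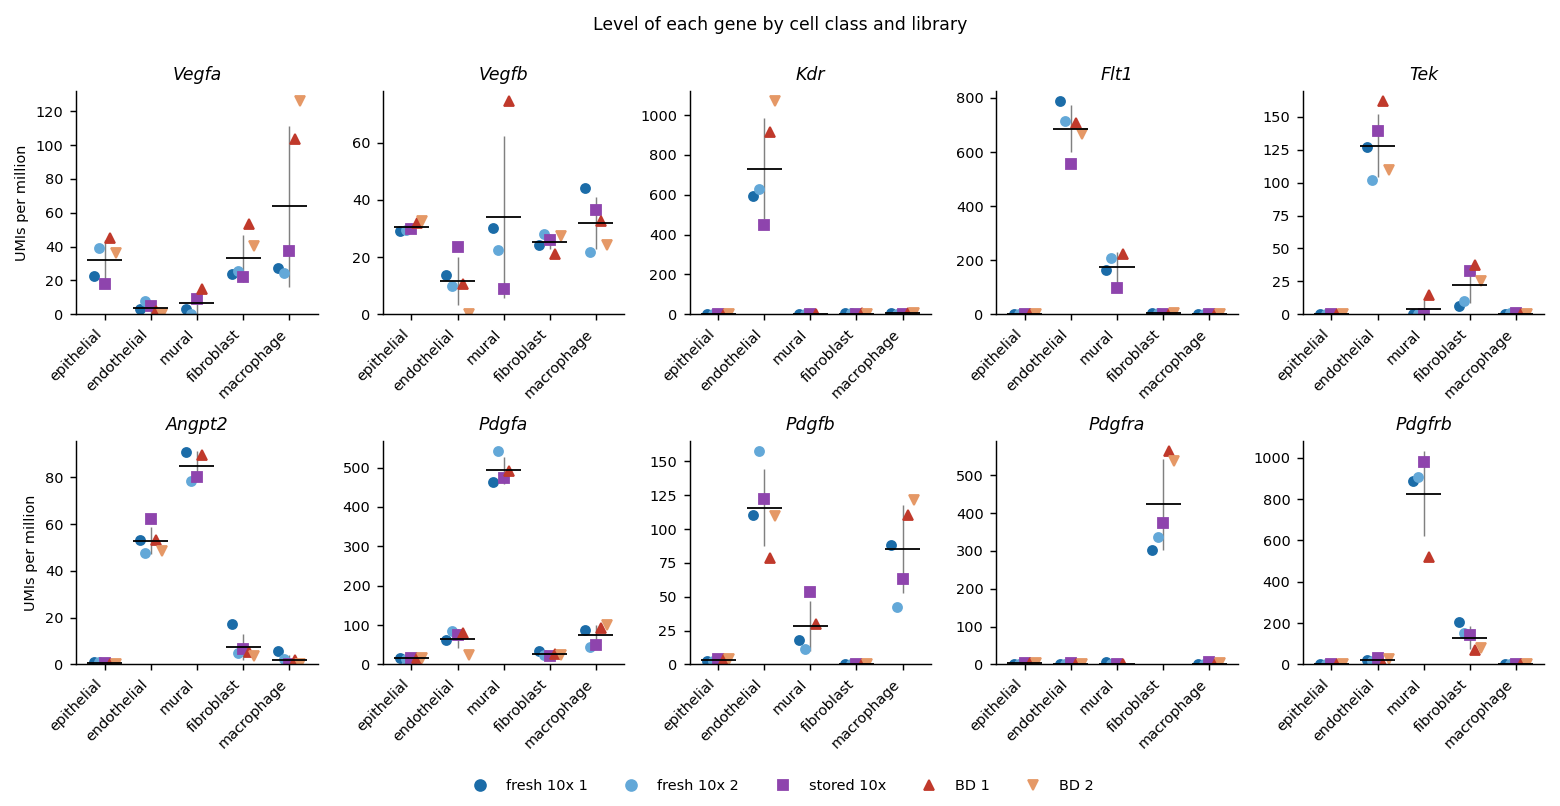
Level of each of the 10 genes in CPM (linear axis from 0) in 5 cell classes, with 1 point per library, the mean as a black line and ± 1 SD as a grey line, for library and class sums of at least 10 cells. Kdr, Flt1 and Tek are highest in endothelial-like cells, Pdgfa and Pdgfrb in mural-like cells and Pdgfra in fibroblast-like cells.

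Kdr, the main VEGF receptor, was at 595, 630, 446, 913 and 1069 CPM in endothelial-like cells of fresh 10x 1, fresh 10x 2, stored 10x, BD 1 and BD 2. No other class overlapped with these values: the level was 0.17 to 0.67 CPM in epithelial-like cells and 2.97 to 4.67 CPM in fibroblast-like cells. The mean was 731 ± 254 CPM in endothelial-like cells and 0.386 ± 0.20 CPM in epithelial-like cells (SD, n = 5). Between them the fitted log2 difference was 10.70 (SE 0.29, adjusted p = 4.63e-16 with edgeR). Mural-like cells held no Kdr UMI among the 865169 UMIs of the 4 libraries tested, which allows up to 3.47 CPM (3 counts over the class), so Kdr was at least 183-fold higher in endothelial-like cells. The mural-like and fibroblast-like levels could not be told apart at that depth.

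Flt1, the second VEGF receptor, was at 788, 715, 555, 709 and 668 CPM in endothelial-like cells of fresh 10x 1, fresh 10x 2, stored 10x, BD 1 and BD 2. Unlike Kdr it also had UMIs in mural-like cells of every library, at 164, 208, 98.1 and 224 CPM in fresh 10x 1, fresh 10x 2, stored 10x and BD 1. The endothelial and mural groups did not overlap, and epithelial-like cells were at 0.99 to 1.83 CPM. The mural level differed from the endothelial one by -2.03 in log2 (SE 0.29, adjusted p = 1.28e-05 with edgeR) and was higher than the epithelial one by 6.64 (SE 0.36, adjusted p = 1.91e-12). Endothelial markers summed to 390 to 522 CPM in mural-like cells of the same libraries, against 4.14 to 13.1 CPM in epithelial-like cells of all libraries. Of the 8 endothelial markers, 5, 6, 4 and 4 had UMIs in the mural-like sums of fresh 10x 1, fresh 10x 2, stored 10x and BD 1, and Cdh5 and Cldn5 were at 0 in each; their part in the Flt1 level was not tested. Kdr was at 0 in the same cells. With cells that carry markers of another class left out, the mural to epithelial value was 6.59 (SE 0.37). That step removed 5, 1, 1 and 1 mural-like cells of fresh 10x 1, fresh 10x 2, stored 10x and BD 1. Endothelial transcripts at lower levels in the remaining cells stay in, so the value cannot decide their part.

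Vegfa, the ligand of both receptors, was low in the cells that carry them. It was at 22.5, 39.0, 17.8, 45.2 and 36.0 CPM in epithelial-like cells of fresh 10x 1, fresh 10x 2, stored 10x, BD 1 and BD 2. In fibroblast-like cells it was at 23.5, 25.4, 22.0, 53.6 and 40.5 CPM in the same order. The epithelial and fibroblast groups overlapped throughout (log2 fold change 0.13, SE 0.14, edgeR adjusted p = 0.441). Endothelial-like cells were at 0 to 7.60 CPM, from 15 UMIs in all 5 libraries together, and stood below epithelial-like cells by -2.91 (SE 0.32, adjusted p = 1.03e-07). Mural-like cells held 3 Vegfa UMIs in the 4 libraries tested, and the epithelial level was 9.33-fold theirs (95% Poisson interval 3.19 to 45.3, counting error only). Macrophage-like cells, not part of the tests, ranged from 24.2 to 126 CPM, with the highest values in BD 1 and BD 2. Of all Vegfa UMIs of named and unnamed cells, 72.8% to 90.9% lay in epithelial-like cells, which are also the most numerous class.

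Vegfb, a ligand of FLT1 that does not bind KDR, had similar levels in most classes. It was at 29.1 to 32.5 CPM in epithelial-like cells and 21.2 to 28.1 CPM in fibroblast-like cells of the 5 libraries. Mural-like cells were at 8.92 to 74.5 CPM, from 24 UMIs in the 4 libraries tested. Fibroblast-like and mural-like cells did not pass against epithelial-like cells (-0.23, SE 0.15, edgeR adjusted p = 0.168, and -0.34, SE 0.33, adjusted p = 0.444). Endothelial-like cells were lower, at 13.8, 9.77, 23.5, 10.6 and 0 CPM in fresh 10x 1, fresh 10x 2, stored 10x, BD 1 and BD 2 (-1.34, SE 0.24, adjusted p = 6.3e-05). The sum for BD 2 comes from 13 cells.

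Tek, the angiopoietin receptor, was at 127, 102, 139, 162 and 109 CPM in endothelial-like cells of fresh 10x 1, fresh 10x 2, stored 10x, BD 1 and BD 2. Fibroblast-like cells were at 6.56, 10.4, 33.1, 37.4 and 25.1 CPM, below every endothelial value and above every epithelial value (0.0248 to 0.392 CPM). The fibroblast level was lower than the endothelial by -2.41 (SE 0.27, edgeR adjusted p = 1.2e-07) and also above the epithelial (adjusted p = 7.05e-14). Fibroblast-like cells carried 77.6 to 153 CPM of endothelial markers. Kdr, a gene of the same endothelial-like cells, was at 2.97 to 4.67 CPM there. The part of endothelial transcripts in the fibroblast Tek level was not tested. Mural-like cells held 1 Tek UMI, in BD 1. The call between fibroblast-like and mural-like cells (4.24, SE 1.25, adjusted p = 0.0158) was lost without fresh 10x 2 (adjusted p = 0.076).

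Angpt2, the TEK ligand, was at 53.0, 47.7, 62.1, 53.2 and 48.6 CPM in endothelial-like cells in the same order of libraries. In mural-like cells it was at 91.0, 78.6, 80.3 and 89.4 CPM in fresh 10x 1, fresh 10x 2, stored 10x and BD 1, above every endothelial value. The edgeR test between the 2 classes did not pass (0.44, SE 0.48, adjusted p = 0.567). The mural-like sums held 30, 28, 9 and 6 Angpt2 UMIs. Both classes stood above epithelial-like cells, which were at 0 to 1.18 CPM, by 6.44 (SE 0.44, adjusted p = 6.14e-11) and 6.89 (SE 0.57, adjusted p = 2.37e-09). Fibroblast-like cells were at 3.51 to 17.4 CPM and also passed against epithelial-like cells (4.02, SE 0.44, adjusted p = 5.11e-08).

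Pdgfa, the ligand of PDGFRA, was highest in mural-like cells, at 464, 542, 473 and 492 CPM in fresh 10x 1, fresh 10x 2, stored 10x and BD 1. Its mean there was 493 ± 34.8 CPM (SD, n = 4), against 65.1 ± 24.0 in endothelial-like, 25.8 ± 4.77 in fibroblast-like and 15.6 ± 0.766 CPM in epithelial-like cells (SD, n = 5). The mural level was above the endothelial one by 2.71 (SE 0.17, edgeR adjusted p = 1.42e-10) and above the epithelial one by 4.71 (SE 0.16, adjusted p = 7.5e-16). All 6 class comparisons of Pdgfa passed. Of all Pdgfa UMIs, 20.6%, 26.6%, 5.71%, 2.53% and 1.17% lay in mural-like cells of fresh 10x 1, fresh 10x 2, stored 10x, BD 1 and BD 2, and 50.8% to 74.0% in the far more numerous epithelial-like cells.

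Pdgfb, the ligand that acts on PDGFRB, was at 110, 157, 122, 78.7 and 109 CPM in endothelial-like cells of fresh 10x 1, fresh 10x 2, stored 10x, BD 1 and BD 2. Mural-like cells were at 18.2, 11.2, 53.5 and 29.8 CPM, from 18 UMIs together, all below the endothelial values (-2.48, SE 0.37, edgeR adjusted p = 2.38e-05). The part of endothelial transcripts in the mural-like Pdgfb level was not tested. Epithelial-like cells were at 2.14 to 4.29 CPM and fibroblast-like cells at 0 to 0.540 CPM. The fibroblast level was below the epithelial one (-3.14, SE 0.47, adjusted p = 3.9e-06). Macrophage-like cells, outside the tests, were at 88.3, 42.6, 63.1, 110 and 121 CPM, a range that overlapped with that of endothelial-like cells.

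Pdgfra, the receptor that marks fibroblasts, was at 303, 337, 374, 563 and 538 CPM in fibroblast-like cells of fresh 10x 1, fresh 10x 2, stored 10x, BD 1 and BD 2. Every other class was at 6.90 CPM or less in every library among epithelial-like, endothelial-like, mural-like and macrophage-like cells. Outside these classes, unnamed cluster 19 (80 shallow cells, 47 of them in stored 10x) had Pdgfra among its 10 leading genes. It had 5 of 6 fibroblast and 5 of 8 epithelial markers. Against epithelial-like cells the log2 difference was 7.40 (SE 0.18, edgeR adjusted p = 6.91e-19). Mural-like cells held 2 Pdgfra UMIs in the 4 libraries tested, both in fresh 10x 1, although they carried fibroblast markers as given above.

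Pdgfrb, the pericyte receptor, was at 888, 907, 981 and 522 CPM in mural-like cells of fresh 10x 1, fresh 10x 2, stored 10x and BD 1. Fibroblast-like cells were at 204, 153, 140, 68.1 and 79.9 CPM, so the 2 groups did not overlap, and both were lowest in the BD libraries. The fibroblast level was lower by -2.25 (SE 0.17, edgeR adjusted p = 1.11e-09). Endothelial-like cells were at 21.8, 17.4, 30.2, 2.13 and 24.3 CPM, above the epithelial level of 0.198 to 0.588 CPM (5.09, SE 0.31, adjusted p = 7.11e-12). A Pdgfrb UMI was seen in few of them: 5 of 172, 6 of 101, 3 of 87, 1 of 45 and 1 of 13 endothelial-like cells in the 5 libraries. Mural markers summed to 594 to 1203 CPM in endothelial-like cells and to 43.9 to 67.5 CPM in epithelial-like cells, and their part in the result was not tested. Without cells that carry markers of another class the value was 4.72 (SE 0.41). That step removed 6, 9, 11, 6 and 1 endothelial-like cells in the order of libraries above. Mural transcripts at lower levels in the remaining cells stay in, so the value cannot decide their part.

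**Figure D2:**
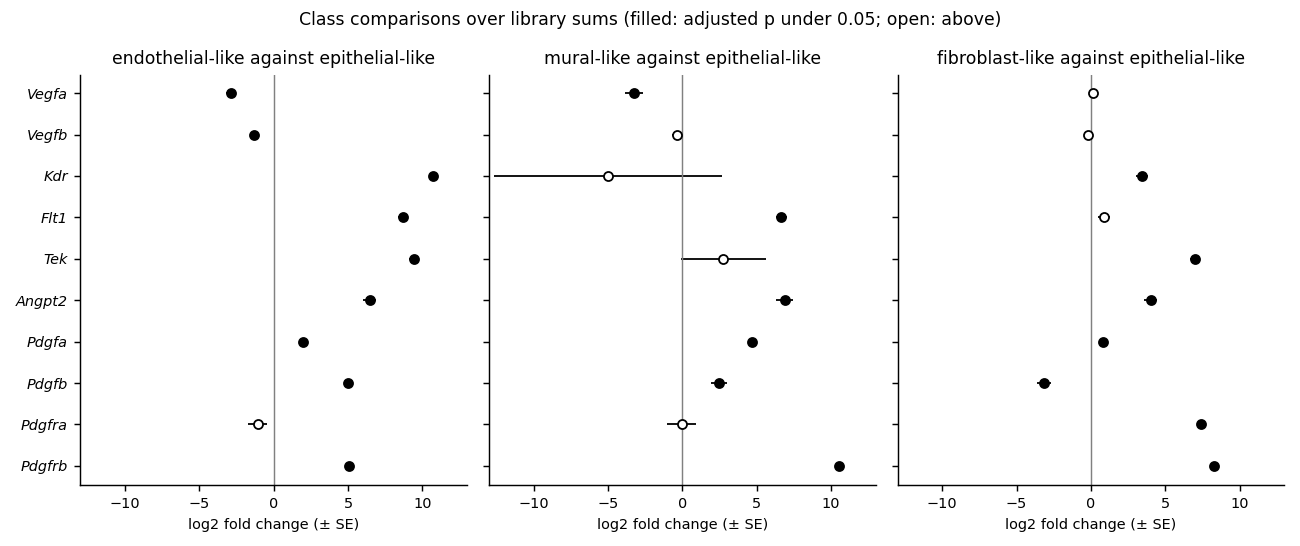
Log2 fold change of each gene (x axis, ± SE) in endothelial-like, mural-like and fibroblast-like against epithelial-like cells, from edgeR on sums per library and class; filled points passed at an adjusted p of 0.05 and open points did not. Vegfa lies below 0 in endothelial-like and mural-like cells, and Kdr and Tek in mural-like cells have wide error bars because 0 and 1 UMIs were counted.

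By class, then, the ligand and receptor of an axis mostly had their highest level in different cells. Vegfa was highest in epithelial-like and fibroblast-like cells among the 4 classes and its receptors in endothelial-like cells. Among the same 4 classes, Pdgfb was highest in endothelial-like and its receptor Pdgfrb in mural-like cells. Pdgfa was highest in mural-like and its receptor Pdgfra in fibroblast-like cells. In macrophage-like cells, outside the tests, the range of Pdgfb overlapped with that of endothelial-like cells. For Angpt2 and Tek, both genes were present in endothelial-like cells.

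Of the 12 further genes of these pathways, 11 were tested, and 7 were higher and 3 lower in endothelial-like than in epithelial-like cells (25.9% and 34.8% of all genes). In mural-like cells 4 were higher and 1 lower (18.2% and 25.2% of all genes), a share called close to that of all genes. In fibroblast-like cells 7 were higher and 2 lower (34.6% and 37.3%). The median log2 fold change of the list was 5.11, 1.09 and 4.19 in these 3 comparisons, against -0.15, -0.22 and -0.06 over all genes tested. For the 10 members the medians were 5.02, 2.62 and 2.17.

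The receptors among them were highest in endothelial-like cells. Tie1, an orphan receptor that pairs with TEK, was at 444 CPM on average in endothelial-like cells (log2 fold change 10.74 against epithelial-like, SE 0.35) and Ptprb, the phosphatase that restrains TEK and KDR, at 616 CPM (10.79, SE 0.33). Flt4, the receptor of VEGF-C and VEGF-D, was at 102 CPM (9.39, SE 0.37). None of these 3 had a UMI in mural-like cells. The co-receptors Nrp1 and Nrp2 were highest in endothelial-like cells too (336 and 223 CPM) but were also present in mural-like cells (169 and 68.9 CPM).

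The ligands had their highest mean in different classes. Vegfd, a lymphatic growth factor, was at 240 ± 188 CPM in fibroblast-like cells (SD, n = 5; 44.4 to 485) and at most 2.13 CPM in endothelial-like cells. Pgf, a ligand of FLT1, was highest in mural-like cells (130 CPM, against 44.2 in epithelial-like, 10.0 in endothelial-like and 5.88 in fibroblast-like cells). Pdgfc, a ligand of PDGFRA, was highest in epithelial-like cells at 22.9 CPM and passed against fibroblast-like cells at 14.7 CPM (-0.56, SE 0.21, edgeR adjusted p = 0.0209). Pdgfd, a ligand of PDGFRB, was at 33.2 CPM in fibroblast-like and 27.0 CPM in endothelial-like cells (0.58, SE 0.20, adjusted p = 0.0190). Vegfc, a ligand of FLT4, was at 44.5 CPM in endothelial-like and 43.1 CPM in fibroblast-like cells and did not pass between them. Angpt1, the activating TEK ligand, was at 30.2 CPM in mural-like and 29.8 CPM in fibroblast-like cells, with no UMI in endothelial-like cells, and did not pass between the first 2 either. Angpt4 had too few UMIs to be tested.

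Endothelial-like cells were next split by a UMI of Esm1 or Apln, genes of sprouting tip cells. The positive cells numbered 67, 42, 31 and 15, and the negative cells 105, 59, 56 and 30, in fresh 10x 1, fresh 10x 2, stored 10x and BD 1. BD 2 was left out for having 4 and 9 cells. The positive cells were also deeper, with medians of 8436, 11417, 7281 and 10304 UMIs against 5286, 5128, 2922 and 8131, and the part of depth in what follows was not tested.

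Of the 10 members, 6 had enough counts and none passed, with 3 at an unadjusted p under 0.05, against 0.384% of 4942 genes called (0.223% higher, 0.162% lower). Pdgfa came nearest, with 47.0, 67.9, 45.7 and 39.5 CPM in positive and 78.1, 108, 107 and 102 CPM in negative cells, groups that did not overlap (-0.93, SE 0.21, edgeR adjusted p = 0.0556). Without a filter on low counts it passed (-0.92, adjusted p = 0.011), and DESeq2 called no member. For Kdr the difference was 0.34 (SE 0.10, edgeR adjusted p = 0.227), for Flt1 0.20 (SE 0.10, 0.726) and for Angpt2 0.88 (SE 0.33, 0.488), which does not show that the cells were alike. The Angpt2 value joins libraries that differ, on few UMIs. Angpt2 was higher in positive than in negative cells of fresh 10x 1 (78.9 against 29.3 CPM, from 52 and 21 UMIs). The same held in fresh 10x 2 (71.5 against 11.05 CPM, from 40 and 4 UMIs). In stored 10x the levels were close (58.8 against 65.6 CPM, from 18 and 19 UMIs). In BD 1 they were 45.2 against 58.1 CPM, from 8 and 17 UMIs, too few to settle a direction. The difference between these libraries was not tested.

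Fibroblast-like cells were split into 2 types. Cells with more UMIs of Efemp1 and Clec3b were compared with cells with more of Cilp and Thbs4, in all 5 libraries and with the library as a block. Of the 10 members, 6 had enough counts and 5 passed (3 higher, 2 lower), against 20.8% of 9624 genes (10.5% and 10.2%). Tek was at 16.5, 29.8, 49.0, 53.2 and 32.7 CPM in the Efemp1 and Clec3b type of fresh 10x 1, fresh 10x 2, stored 10x, BD 1 and BD 2. It was at 5.01, 1.60, 3.72, 5.86 and 12.3 CPM in the other type, with no overlap (2.70, SE 0.31, edgeR adjusted p = 6.16e-05).

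The PDGF genes moved in both directions. Pdgfra was higher in the Efemp1 and Clec3b type in each library, with 389, 414, 414, 590 and 608 CPM against 286, 285, 301, 511 and 412 CPM (0.46, SE 0.09, edgeR adjusted p = 0.00287). Pdgfrb was lower there in each library, with 104, 76.1, 96.4, 39.6 and 62.9 CPM against 221, 186, 219, 126 and 104 CPM (-1.18, SE 0.13, adjusted p = 3.54e-05). Pdgfa was lower too, with 14.1, 6.62, 6.08, 16.3 and 8.08 CPM against 40.1, 32.8, 46.9, 47.7 and 52.9 CPM, and the groups did not overlap (-2.15, SE 0.22, adjusted p = 2.21e-05). The Cilp and Thbs4 type is thus the one with more Pdgfa and Pdgfrb and less Pdgfra and Tek.

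Vegfa passed as well but not in 1 direction. It was at 14.1 against 25.5 CPM in fresh 10x 1 and 21.5 against 24.0 CPM in fresh 10x 2, lower in the Efemp1 and Clec3b type. It was higher there in stored 10x (27.1 against 12.6 CPM), BD 1 (72.1 against 16.2) and BD 2 (51.0 against 21.5). The fitted value was 1.09 (SE 0.30, edgeR adjusted p = 0.0197). The call was lost under DESeq2 (0.84, adjusted p = 0.134), without BD 1 (0.64, adjusted p = 0.21), without stored 10x (1.08, adjusted p = 0.0563) and without BD 2 (1.06, adjusted p = 0.056).

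**Figure D3:**
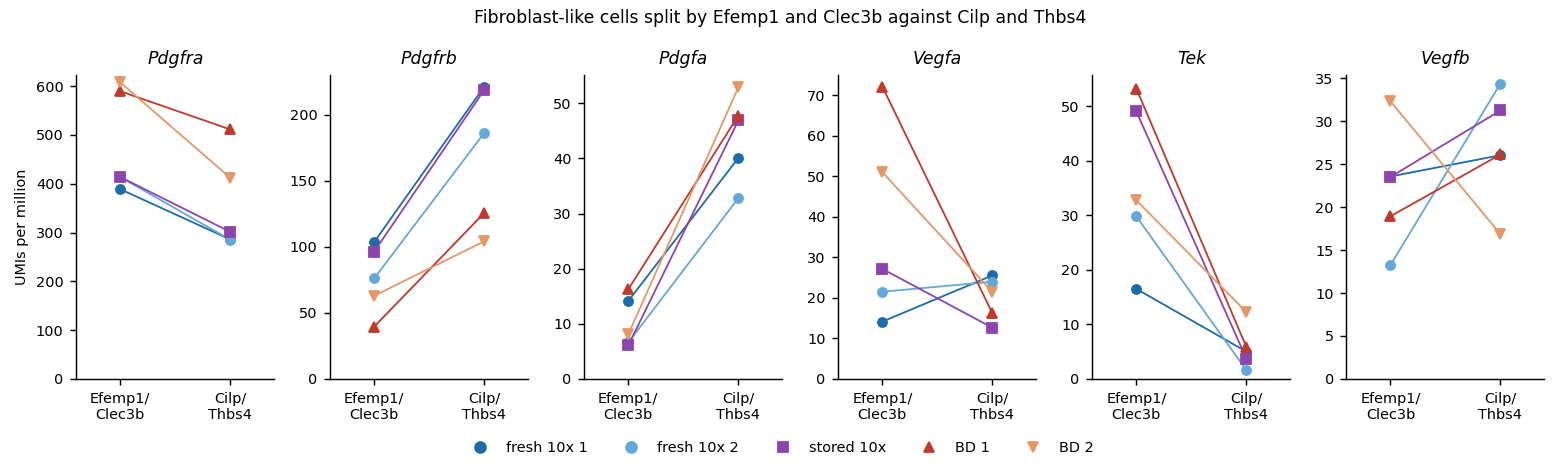
Level in CPM (linear axis from 0) in the Efemp1 and Clec3b type and in the Cilp and Thbs4 type of fibroblast-like cells, with 1 line per library. Tek and Pdgfra fall and Pdgfrb and Pdgfa rise from left to right in all 5 libraries, while the lines of Vegfa and Vegfb run in both directions.

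In epithelial-like cells, the 25% of cells with the highest summed level of 12 hypoxia-response genes were compared with the other 75% in each library. The sum was not weighted by gene, so the glycolysis genes Ldha (1223 CPM over all epithelial-like cells) and Pgk1 (268 CPM) made up most of it. The others of the 12 were at 5.60 to 85.9 CPM each, so the split mainly follows Ldha. Vegfa, itself a known target of hypoxia-inducible factors and not among the 12, was higher in the upper group of all 5 libraries. In the order used above, the pairs were 40.8 against 16.8, 63.6 against 30.7, 20.9 against 16.7, 64.2 against 38.1 and 45.9 against 32.3 CPM. On the log2 scale the difference was 0.77 (SE 0.11, edgeR adjusted p = 0.000469). The difference was smallest in stored 10x.

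The PDGF ligands were lower in those cells. Pdgfa was at 8.16 to 11.9 CPM in the upper group and 15.5 to 18.2 CPM in the rest, with no overlap (-0.69, SE 0.09, edgeR adjusted p = 0.000274). Pdgfb was at 1.05 to 1.98 CPM against 2.44 to 5.27 CPM (-1.51, SE 0.18, adjusted p = 0.000197). Pdgfra, at 1.05 to 3.18 against 1.55 to 4.13 CPM, passed (-0.53, SE 0.16, adjusted p = 0.0443) and lost the call when any 1 library was left out (adjusted p 0.0583 to 0.186). In all, 6 of the 10 members were tested and 4 passed (1 higher, 3 lower), against 16.7% of 12733 genes (9.6% higher, 7.05% lower). No member passed without the library as a block. The upper group had a lower median depth than the rest in fresh 10x 1 (12017 against 12780 UMIs) and fresh 10x 2 (13363 against 13639). Its median was higher in stored 10x (13370 against 11530), BD 1 (16245 against 13646) and BD 2 (12442 against 10472). The part of depth in these results was not tested.

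The same 3 growth factor genes varied between epithelial-like clusters. Pdgfa and Pdgfb were highest in cluster 14, led by the basal genes Krt5, Krt14 and Trp63, with 82.1 and 35.8 CPM on average. Cluster 7, led by Ltf, Aldh1a3 and Krt7, was next, with 38.7 and 18.2 CPM. In the other 8 clusters with at least 20 cells in a library the means were 6.17 to 25.3 CPM for Pdgfa and 0.618 to 4.80 CPM for Pdgfb.

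In cluster 14 the Pdgfa level was 74.2, 101, 68.7, 66.4 and 99.9 CPM in fresh 10x 1, fresh 10x 2, stored 10x, BD 1 and BD 2, above every value of any other epithelial-like cluster. Vegfa in cluster 14 was 13.9, 31.7, 54.3, 114 and 98.7 CPM in the same order, a wide spread between libraries. The cluster with the most Vegfa differed by library: cluster 14 in stored 10x, BD 1 and BD 2, and cluster 2, led by interferon-stimulated genes, in both fresh 10x libraries. These are descriptions of clusters, with no test. Across the 10 clusters, the correlation of mean Vegfa (log2 of CPM + 1) with the 8 of 12 hypoxia genes that had a value ran from -0.19 for Ldha to 0.72 for Slc2a1 (Pearson's r, 10 clusters of the same 5 libraries).

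**Figure D4:**
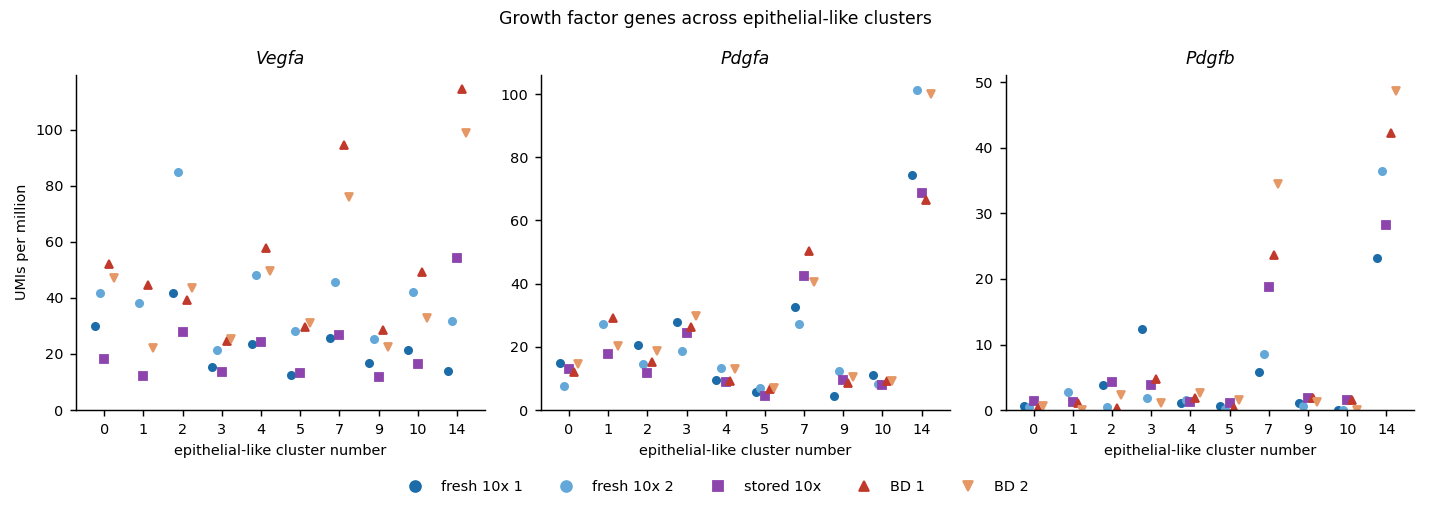
Level of Vegfa, Pdgfa and Pdgfb in CPM (linear axis from 0) in the 10 epithelial-like clusters with at least 20 cells in a library, with 1 point per library and cluster. Pdgfa and Pdgfb are highest in cluster 14, led by Krt5 and Krt14, and the Vegfa points of clusters 7 and 14 spread most between libraries.

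The study's own contrasts are platform and storage. Each class of BD 1 and of stored 10x was compared with the 2 fresh 10x libraries, 1 library against 2, so the spread comes from the fresh pair alone (1 residual degree of freedom, moderated over genes). The 2 comparisons share the fresh 10x libraries. BD cells also had a higher mitochondrial share (median 15.2% in BD 1 and 19.8% in BD 2, against 6.14% to 7.17% on 10x), and its part in the results was not tested. With 1 library, the platform and the sample cannot be told apart. Markers of other classes also differed in epithelial-like cells of BD 1 against fresh 10x 1 and fresh 10x 2. Fibroblast markers summed to 140 against 85.4 and 68.8 CPM, and mural markers to 66.9 against 50.5 and 43.9 CPM. Endothelial markers summed to 6.03 against 13.1 and 10.7 CPM. Their part in the low Pdgfra and Angpt2 levels of epithelial-like cells was not tested.

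In epithelial-like cells 2 of 10 members passed for BD 1, against 43.2% of 15451 genes (21.9% higher, 21.3% lower). Pdgfra was higher, with 3.87 CPM against 1.43 and 1.55 in fresh 10x 1 and fresh 10x 2 (1.22, SE 0.31, edgeR adjusted p = 0.0132; DESeq2 0.179). Angpt2 was lower, with 0.0870 against 1.18 and 0.911 CPM (-3.69, SE 0.81, adjusted p = 0.00662). Vegfa, at 45.2 against 22.5 and 39.0 CPM, did not pass (0.40, SE 0.25, adjusted p = 0.228).

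In endothelial-like cells 8 of 10 members were tested and 2 passed for BD 1, against 17.6% of 8406 genes (8.59% higher, 8.99% lower). Kdr was higher, with 913 against 595 and 630 CPM (0.61, SE 0.17, edgeR adjusted p = 0.0267). Pdgfrb was lower, with 1 UMI (2.13 CPM) against 21.8 and 17.4 CPM (-3.08, SE 0.91, adjusted p = 0.0377). With DESeq2's size factors neither passed (0.0769 and 0.0887).

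In fibroblast-like cells 9 of 10 were tested and 5 passed for BD 1, against 36.2% of 12224 genes (17.7% higher, 18.5% lower). DESeq2 called 2 of them, Tek and Pdgfrb. Tek (2.06, SE 0.27, edgeR adjusted p = 0.00319), Vegfa (1.02, SE 0.18, 0.00825) and Pdgfra (0.70, SE 0.16, 0.017) were higher. Pdgfrb (-1.51, SE 0.22, 0.00438) and Flt1 (-3.01, SE 0.69, 0.0188) were lower, the last from 4 UMIs in BD 1.

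For stored 10x, no member passed in epithelial-like cells (2 of 10 at an unadjusted p under 0.05 with edgeR, none called by DESeq2), against 1.74% of all genes (1.35% higher, 0.395% lower). No member passed in endothelial-like cells either (2 of 8 at an unadjusted p under 0.05, none by DESeq2), against 1.17% (1.08% higher, 0.0833% lower). In fibroblast-like cells Tek alone passed, at 33.1 CPM against 6.56 and 10.4 CPM (2.00, SE 0.29, edgeR adjusted p = 0.0256), against 3.66% of all genes (2.19% higher, 1.46% lower), and DESeq2 did not call it (adjusted p = 0.119).

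The make-up of the fibroblast-like class also differed between these libraries. With 1 library against 2, it cannot be told apart from platform, storage or sample. In fresh 10x 1, 30 of 193 cells lay in cluster 15 (leading genes Efemp1 and Clec3b), and in fresh 10x 2 38 of 120. For stored 10x it was 215 of 313 cells, for BD 1 226 of 334 and for BD 2 163 of 229, and cluster 18, led by Lrrc15, Thbs4 and Cilp, held the rest. Within cluster 15, Tek was at 20.1, 31.4, 48.5, 51.7 and 33.8 CPM in fresh 10x 1, fresh 10x 2, stored 10x, BD 1 and BD 2, and within cluster 18 at 0.76 to 4.45 CPM.

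Tested inside the types, the stored 10x value of Tek was 1.01 (SE 0.37, edgeR adjusted p = 0.177) in the Efemp1 and Clec3b type and 0.02 (SE 0.92, adjusted p = 1) in the other. For BD 1 it was 0.96 (SE 0.36, adjusted p = 0.0351) and 0.60 (SE 0.72, adjusted p = 0.555). Vegfa was higher in BD 1 in the first type (1.79, SE 0.36, adjusted p = 1.54e-05), with -0.70 (SE 0.27, adjusted p = 0.0803) in the second. Pdgfrb was lower in BD 1 in both types (-1.34, SE 0.29, adjusted p = 7.7e-05, and -0.79, SE 0.17, adjusted p = 0.00884).

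**Figure D5:**
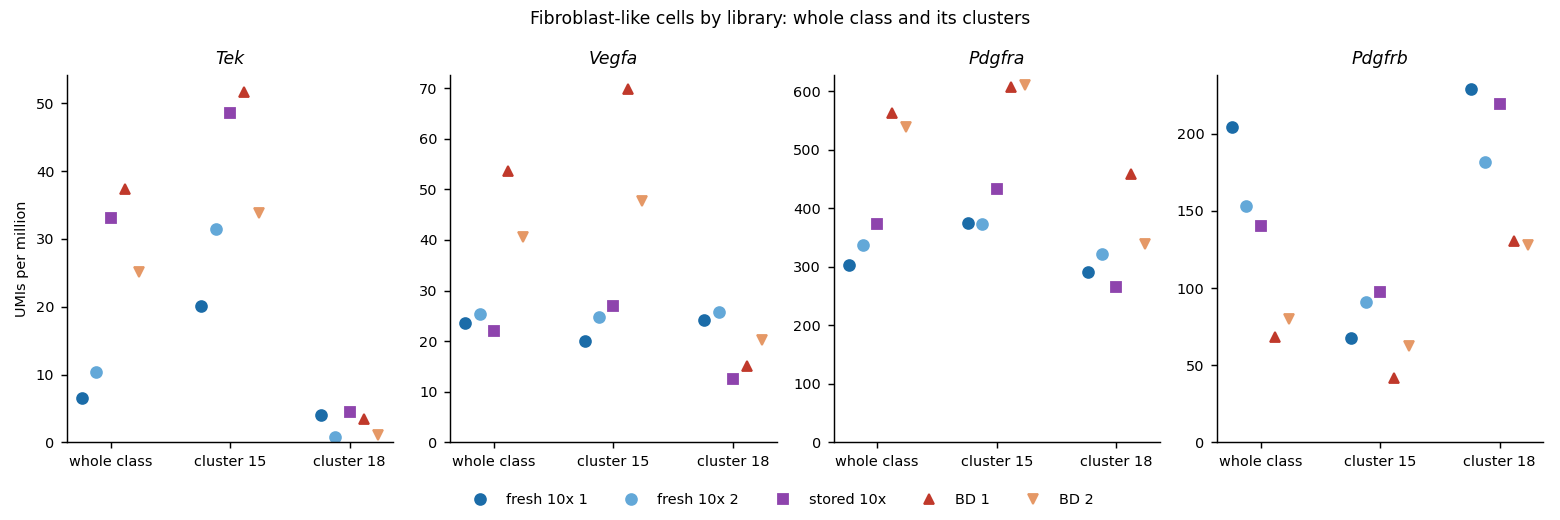
Level of Tek, Vegfa, Pdgfra and Pdgfrb in CPM (linear axis from 0) in all fibroblast-like cells and in their clusters 15 (led by Efemp1 and Clec3b) and 18 (led by Lrrc15, Thbs4 and Cilp), with 1 point per library. Tek is close to 0 in cluster 18 of every library, and the Vegfa points of the BD libraries stand above the others in cluster 15 and not in cluster 18.

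The genes whose pattern was most like each member were taken over 19 library and class sums and 6646 genes, by Pearson's r of log2 (CPM + 1). These points share libraries and depth, and r is a description. Kdr was closest to Ptprb (0.994), S1pr1 and Clec14a, and Flt1 to Gimap6 (0.991), Ets1 and Ednrb. Tek was closest to Tspan18 (0.957), Angpt2 to Rgs16 (0.979), Pdgfb to Scarf1 (0.973), Pdgfa to Ppp1r12a (0.987), Pdgfrb to Zeb2 (0.984) and Pdgfra to Ogn (0.988). Vegfa was closest to Surf4 (0.908), the lowest of the 10 best values, and Vegfb to Chmp1a (0.976).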

How the data were processed

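Single-cell libraries were made with the 10x Genomics 3' v2 or BD Rhapsody whole-transcriptome kit, per the labels' protocols. The deposited matrices hold UMI counts per gene and cell, not normalized. Cell Ranger 3.0.1 and mm10 are named in the submitters' processing notes, with no role. The annotation, and the pipeline of the BD libraries, are not given in the sources at hand. The members and gene lists were chosen with earlier results of these data known.

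Cells with at least 200 genes were clustered (scanpy 1.11.5, 2000 variable genes, 30 components, Leiden resolution 1.0) without 22 member and pathway genes. A cluster took a class name where at least 3 markers had UMIs in 25% of its cells and a mean of at least 10% of the highest cluster; clusters led by mitochondrial genes or shallow cells stayed unnamed. The marker lists were set first, but this scoring rule was revised 2 times after clusters were seen, before member levels were, and 82, 99, 481, 395 and 524 cells stayed unnamed in fresh 10x 1, fresh 10x 2, stored 10x, BD 1 and BD 2. The doublet caller marked 0 to 21 cells per library, under 0.5% in 4 of 5, so doublets were in effect kept; leaving out cells with markers of another class is an alternative added after seeing the data, as are tests inside each fibroblast type.

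Counts were summed per library and class (at least 10 cells) and tested with edgeR 4.0.16 (quasi-likelihood, TMM, filterByExpr, R 4.3.3), with DESeq2 1.42.0 as an alternative. The class and gate fits block on library, since each library holds all classes. The tests were first run on simulated counts with a fixed spread, no library effect and changes only in genes with more counts. Those settings differ from these data, so the run checks the code and not the error rates here. Other alternatives were DESeq2's size factors, no filter, each library left out, stricter cell filters, resolution 2.0, no block, and BD 2 grouped by its title. All 10 members are named. Of the 12 pathway genes, the 9 that passed against each other class in their class of highest level are named by rule; Vegfc, Angpt1 and Angpt4 are named besides as those that did not. A list of 4 tip-cell genes (Dll4, Kcne3, Cxcr4, Nid2) had 1 gene higher between Esm1 or Apln positive and negative cells. All 12 hypoxia genes were higher in the upper group they define. Of the 10 members, 7 had a RefSeq promoter entry. CPM is UMIs per 1000000 of the class sum. Intervals and floors cover counting error only.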

Additional observations from a re-analysis of the deposited data

Results flagged for a closer look

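The Vegfa difference between the 2 fibroblast-like types went in opposite directions in different groups of libraries. The log2 ratio of the Efemp1 and Clec3b type to the Cilp and Thbs4 type was -0.85 and -0.16 in the fresh 10x libraries 1 and 2. The other 3 libraries, stored 10x, BD 1 and BD 2, gave 1.10, 2.15 and 1.25. The difference between the groups was not tested, and 3 of the 4 groups hold 1 library. The Efemp1 and Clec3b side rests on 6 and 13 Vegfa UMIs in the fresh 10x libraries, against 67, 324 and 120 in the others.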

How the results depend on the processing

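Of 65 called values of the 10 members, 759 values under other settings kept the direction and the call in 723 cases, lost the call in 35 and changed sign in 1; 14 values that had not passed did so. The sign change was Vegfa of BD 1 in fibroblast-like cells, -0.70 in the Cilp and Thbs4 type alone. The number of members called changed by over 1.5 times in these cases. Without the replicate block (the library term), 2 members in place of 5 were called between fibroblast types and 0 in place of 4 by the hypoxia list; calls over all genes fell from 1997 to 627 and from 2121 to 10. With no filter, 1 member was called in the Esm1 and Apln split in place of 0. For BD 1, DESeq2 called 1 member in epithelial-like, 0 in endothelial-like (with no adjusted p for Pdgfrb) and 2 in fibroblast-like cells, and its size factors 0 in endothelial-like cells. With BD 2 grouped by its title, BD members called were 4 in epithelial-like and 1 in endothelial-like cells, with 8578 of 15451 and 1417 of 8406 genes called. Inside the Efemp1 and Clec3b type and the Cilp and Thbs4 type, 3 and 2 members were called for BD 1, with 2478 of 11467 and 3503 of 10375 genes called. For stored 10x, 0 members were called in fibroblast-like cells by DESeq2, with its size factors and inside either type. Leaving out 1 library, members called ranged from 4 to 5 between fibroblast types, 3 to 3 by the hypoxia list, 7 to 8 for fibroblast-like against epithelial-like and against mural-like cells, and 6 to 7 for mural-like against endothelial-like cells. No platform or storage value was computed without a fresh 10x library, since no residual degree of freedom is left.

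Values that had not passed and changed sign were these, on the log2 scale. For mural-like against epithelial-like cells, Kdr was 1.31 and Pdgfra 0.072 with DESeq2. With 1 library left out, Tek ranged from -3.62 (without BD 1) to 3.70 and Pdgfra from -7.81 to 0.52 (0.52, 0.25 and 0.19 without fresh 10x 2, stored 10x and BD 1). For mural-like against endothelial-like cells, Vegfa ranged from -0.97 to 0.88 (without fresh 10x 2) and Pdgfra from -6.81 (without fresh 10x 1) to 1.98. For fibroblast-like against mural-like cells, Vegfb ranged from -0.053 (without fresh 10x 2; -0.049 without stored 10x) to 0.42. For BD 1, Vegfb in epithelial-like cells was 0.0025 with no filter, and with BD 2 grouped by title Vegfb was 0.024 and Tek -0.22. In endothelial-like cells of BD 1, Flt1 was 0.0018 with stricter cells, Angpt2 -0.10 without mixed cells and Pdgfa -0.055 by title. In fibroblast-like cells of BD 1, Kdr was 0.69 and Pdgfa 0.54 in the Efemp1 and Clec3b type, and Pdgfa 0.29 in the other. For stored 10x, Pdgfa was 0.0019 with no filter in epithelial-like cells, and in endothelial-like cells Pdgfa was -0.075 with stricter cells and Pdgfb 0.021 without mixed cells. In fibroblast-like cells of stored 10x, Vegfb was 0.0091 with no filter, 0.0043 without BD 1 (-0.00055 without BD 2), 0.0058 at resolution 2.0, and 0.39 and 0.065 in the 2 types. There the Efemp1 and Clec3b type gave Vegfa 0.54, Kdr 0.71 and Pdgfrb 0.10, and the other type Angpt2 0.0087, Pdgfa 0.33 and Pdgfrb 0.079. The cause of these changes was not tested. Over all genes, stored 10x calls were 98 in endothelial-like, 447 in fibroblast-like and 269 in epithelial-like cells, against 20, 196 and 141 with DESeq2 and 0, 36 and 360 with its size factors. Mural-like cells, with 67081 to 356181 UMIs per sum, limit what can be seen of Kdr, Tek, Vegfa and Pdgfra.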
